A study of Mus musculus with 24 samples.

Results

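The genes described here encode postsynaptic scaffolds and synaptic adhesion proteins, in the cortical cells of mice with and without *Kdm6b*. The 42 members are a fixed list of gene symbols and were found by name among the 25135 genes of the expression tables. RNA was sequenced from nuclei of the mouse cortex, sorted for the nuclear envelope tag SUN1-GFP, on postnatal day 1 (P1) and day 30 (P30). WT mice were Kdm6b wt/wt, and Kdm6b-cKO mice (Kdm6b-KO in the labels) were Emx1-Cre; Kdm6b f/f littermates, both with the SUN1-GFP reporter that marks the Emx1 lineage and on a C57BL/6 background. There were 6 libraries for each genotype at each age and 24 in all. Emx1-Cre acts in progenitors of the dorsal forebrain, the source of the cortex's glutamatergic neurons, of astrocytes and of some oligodendrocytes, so *Kdm6b* stays intact in cells of other origin.

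The postsynaptic density of an excitatory synapse is built in layers. Membrane-associated guanylate kinases of the PSD-95 family hold glutamate receptors near the membrane, SAPAP proteins link them to Shank and Homer deeper in the density, and CaMKII is the abundant calcium-activated kinase of the structure. Adhesion proteins join both sides of the cleft: presynaptic neurexins bind postsynaptic neuroligins and leucine-rich repeat proteins of the Lrrtm family, and the Lrfn (SALM) proteins are a further leucine-rich repeat family, some of whose members bind PSD-95. Gephyrin is the scaffold of inhibitory synapses. In the rodent cortex most synapses form in the first postnatal weeks, between the 2 ages sampled here. KDM6B removes methyl groups from a lysine of histone H3 that marks repressed promoters.

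All 42 members passed the filter of a mean of at least 1 FPKM (fragments per kilobase of transcript, scaled to the mapped fragments) at both ages, among 16250 genes tested at P1 and 13289 at P30. The tables hold no read totals, and the depth read from steps of 1 read ran from 192000 to 3900000 effective reads at P1 and from 1940000 to 8310000 at P30. At P1, 4 WT libraries and 1 Kdm6b-cKO library carried signal from more than 100 olfactory receptor genes, which the other 2 WT and 5 Kdm6b-cKO libraries did not. At P30, the 45S ribosomal RNA precursor was above 1000 FPKM in 5 WT and 3 Kdm6b-cKO libraries and below it in 1 WT and 3 Kdm6b-cKO libraries. *Kdm6b* itself, measured over the whole gene, did not separate the groups: at P30 the WT libraries lay between 16.9 and 26.4 FPKM and the Kdm6b-cKO libraries between 17.5 and 28.1 FPKM (exact permutation p = 0.446), and at P1 the WT libraries lay between 24.9 and 51.0 FPKM and the Kdm6b-cKO libraries between 15.0 and 38.4 FPKM (exact permutation p = 0.19). These values do not separate the floxed part from the rest of the transcript, and the genotypes below are those of the labels. The authors report a strong reduction of *Kdm6b* mRNA in sorted Kdm6b-cKO nuclei, measured by qRT-PCR. Glutamatergic neuron markers were present in every group, with summed levels of 213.8 to 489.7 FPKM in Kdm6b-cKO and 307.1 to 449.5 FPKM in WT at P30. GABAergic neuron markers were present too, with 233.5 to 425.7 FPKM and 60.1 to 587.5 FPKM. At P1 the glutamatergic sums were 582.7 to 1020.1 FPKM in Kdm6b-cKO and 504.6 to 756.6 FPKM in WT. The GABAergic sums were 940.04 to 2825.7 FPKM and 753.1 to 1502.6 FPKM there. Sums over different genes give no shares of cells, and the purity of the sort was not tested. In such bulk samples, fewer cells of a type and less RNA per cell cannot be told apart. The labels do not say whether libraries of a group came from separate animals, so the p-values measure only the spread between these libraries.

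Of the 42 members, 32 had at least 1 promoter in the RefSeq table (GRCm38.p6), with 55 promoters between them. *Camk2a*, *Camk2g*, *Dlgap2*, *Lrfn1*, *Lrfn2*, *Lrrtm2*, *Nlgn3*, *Nrxn2*, *Shank1* and *Shank2* had none there. The 250 bases before the start site are shown for the 3 members that had an unadjusted p under 0.05 between the genotypes at P30 and 1 listed promoter without alternatives: Agap2 (chr10:127078657-127078906, + strand), Baiap2 (chr11:119942842-119943091, + strand) and Lrfn5 (chr12:61522917-61523166, + strand). They are written 5′ to 3′, and capitals mark each CG dinucleotide, which is dense in promoters of the CpG island kind.
Agap2: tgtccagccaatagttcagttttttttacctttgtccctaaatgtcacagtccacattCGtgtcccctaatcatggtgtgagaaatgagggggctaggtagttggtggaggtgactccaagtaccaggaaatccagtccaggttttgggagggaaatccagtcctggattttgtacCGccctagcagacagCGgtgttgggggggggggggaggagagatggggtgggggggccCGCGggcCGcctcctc
Baiap2: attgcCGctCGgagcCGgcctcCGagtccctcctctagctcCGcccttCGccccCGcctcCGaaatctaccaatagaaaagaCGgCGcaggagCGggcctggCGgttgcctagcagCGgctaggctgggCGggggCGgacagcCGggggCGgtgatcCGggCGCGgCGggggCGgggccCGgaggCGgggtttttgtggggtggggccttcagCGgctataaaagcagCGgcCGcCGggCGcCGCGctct
Lrfn5: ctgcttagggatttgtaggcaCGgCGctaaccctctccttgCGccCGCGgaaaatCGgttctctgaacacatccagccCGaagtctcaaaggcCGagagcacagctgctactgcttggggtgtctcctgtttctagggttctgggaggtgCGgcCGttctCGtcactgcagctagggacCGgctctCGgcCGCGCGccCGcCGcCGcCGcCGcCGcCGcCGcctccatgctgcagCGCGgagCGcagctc
The 3 promoters differed in this feature. *Baiap2* held 31 CG dinucleotides and *Lrfn5* held 27, counts that 5.19% and 8.56% of all 32851 promoters of the table reach, while *Agap2* held 6, which 50.4% reach. Over the 55 promoters of members the median was 9 CG dinucleotides (quartiles 5 and 25), against 6 (quartiles 2 and 16) over all promoters. The letters GGGCGG, searched on both strands and overlapping the CG count, were in 24 promoters of members (43.6%) and in 32.7% of all promoters. The letters TGACGTCA, searched in the same way, were in 0 of the 55 and in 1.55% of all promoters. These are descriptions of the sequence, and a promoter without the letters says nothing about a factor.

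The members spanned a wide range of expression. In WT at P30 the highest median was that of *Baiap2*, which encodes the I-BAR protein IRSp53, with 194.8, 268.4 and 342.2 FPKM as the lowest, median and highest of the 6 libraries. *Camk2a* (97.6 to 324.1 FPKM, median 222.4) and *Camk2b* (141.8 to 233.7 FPKM, median 212.2), the main CaMKII subunits of forebrain neurons, came next, and the ranges of all 3 overlapped. The lowest medians were those of the adhesion genes *Nlgn3* (3.28 to 5.68 FPKM, median 4.44) and *Lrrtm2* (3.02 to 6.34 FPKM, median 4.31), which overlapped each other. In WT at P1 the order began with *Dlgap4* (104.2 to 139.9 FPKM, median 115.8), a SAPAP linker, and ended with *Shank3* (2.12 to 2.63 FPKM, median 2.32). FPKM is a level per length of transcript, so these orders compare levels between genes within one age.

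The comparison of genotypes at P30 gave 1 member that differed. *Lrfn1*, which encodes the PSD-95-binding adhesion protein SALM2, fell in Kdm6b-cKO and its groups did not overlap: the lowest, median and highest library had 7.13, 9.05 and 11.1 FPKM in WT and 2.79, 3.45 and 5.57 FPKM in Kdm6b-cKO. WT averaged 9.05 ± 1.47 FPKM (SD, n = 6), against 3.92 ± 1.27 FPKM (SD, n = 6) for Kdm6b-cKO. On the log2(FPKM + 0.1) scale the change was -1.23 (SE 0.22), a level 2.34-fold higher in WT, with an adjusted p of 0.0306 by limma and an exact two-sided permutation p of 0.00216, the smallest that 12 libraries can give. Across all genes tested, 0.286% passed the adjusted threshold lower in Kdm6b-cKO (0.226% with a change of more than 2-fold as well), 0.0828% passed it higher, and the groups did not overlap in 1.05% with Kdm6b-cKO lower and in 0.888% with Kdm6b-cKO higher. *Lrfn1* lies at chr7:29237257-29252567 on the + strand of mm9 (GENCODE vM1) and has no exon shared with a gene on the opposite strand there. Its level was lower in Kdm6b-cKO on both sides of the 45S split, by -0.99 on the log2 scale in the libraries above 1000 FPKM (5 WT, 3 Kdm6b-cKO, exact permutation p = 0.0179, the smallest possible) and by -1.53 in those below (1 WT, 3 Kdm6b-cKO, where p cannot go under 0.25). The call was kept in 4 of 12 fits without 1 library and lost in 8, with an adjusted p by limma of 0.0676, 0.107, 0.087, 0.0963 and 0.0948 without WT number 0, 2, 3, 4 and 5, and of 0.0763, 0.0752 and 0.0693 without Kdm6b-cKO number 0, 1 and 5. The log2 change stayed between -1.34 and -1.14 in those 12 fits.

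At P1 *Lrfn1* was not called. It had 4.35, 5.20 and 10.6 FPKM as the lowest, median and highest level in WT, and 0, 3.14 and 8.73 FPKM in Kdm6b-cKO, so the groups overlapped (log2 change -1.94, SE 0.93, adjusted p = 0.354 by limma, and a change of -1.15 without Kdm6b-cKO number 0). The Kdm6b-cKO library at 0, number 0, held 343000 effective reads, where 3 reads on a transcript of 3000 bases are worth 2.92 FPKM, and the highest one, number 5, held 192000, where 3 reads are worth 5.21 FPKM. The difference of the genotype effect on *Lrfn1* between P30 and P1 was 0.72 (SE 1.01, adjusted p = 0.788 by limma), so no difference between the ages was detectable.

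**Figure D1:**
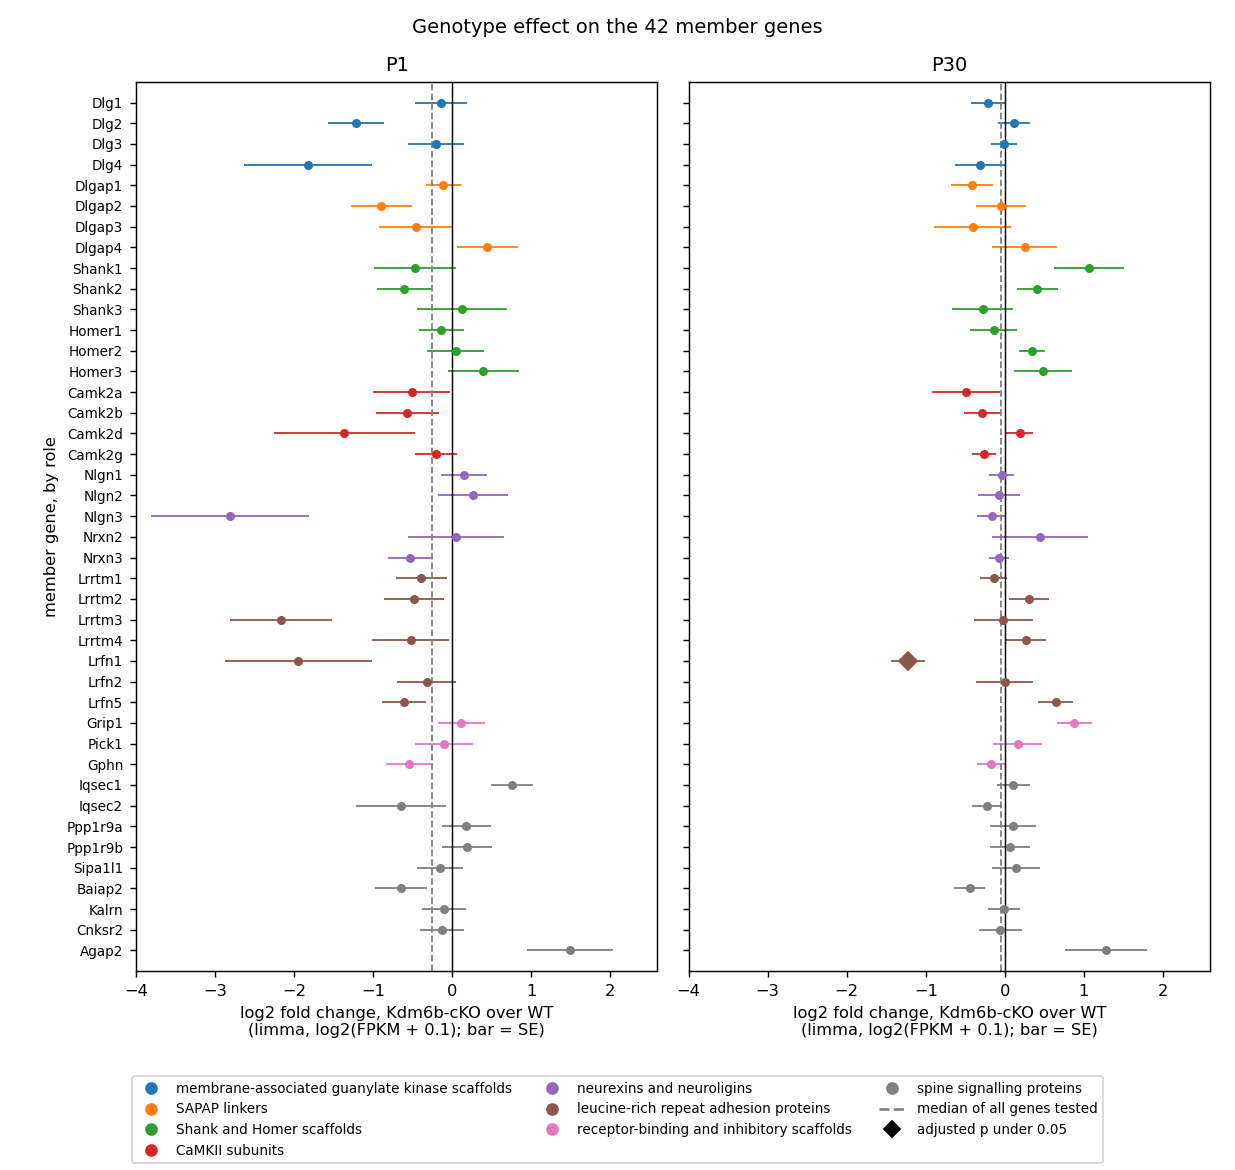
Log2 fold change of Kdm6b-cKO over WT for each of the 42 members at P1 (left) and P30 (right), in the order of their roles, with the standard error as a bar, 0 as a solid line and the median of all genes tested as a dashed line. The diamond, *Lrfn1* at P30 with -1.23, is the one member with an adjusted p under 0.05, and the bars at P1 are wider than those at P30 for most members.

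The other leucine-rich repeat adhesion genes did not share the change of *Lrfn1* at P30. *Lrfn2*, which encodes SALM1, had 3.99, 5.25 and 8.94 FPKM in WT and 2.37, 6.51 and 12.8 FPKM in Kdm6b-cKO (lowest, median, highest), with a log2 change of 0.00 (SE 0.36). *Lrfn5*, which encodes SALM5, had 8.63, 13.6 and 17.0 FPKM in WT and 15.8, 17.3 and 33.0 FPKM in Kdm6b-cKO, so that its groups overlapped through 1 WT library. Its log2 change was 0.64 (SE 0.23, unadjusted p = 0.0134 and adjusted p = 0.257 by limma). *Lrrtm1*, the most abundant member of this role in WT at P30 (24.7 to 39.0 FPKM, median 33.2), had 24.3 to 40.7 FPKM in Kdm6b-cKO (log2 change -0.14, SE 0.17). Over the 7 genes of the role the median log2 change at P30 was 0.00, and 1 passed the adjusted threshold. At P1 all 7 had a negative estimate, with a median of -0.52 against -0.25 over all genes tested, and 0 of them passed the adjusted threshold. The largest of these was that of *Lrrtm3*, a postsynaptic adhesion gene, with 18.1, 33.5 and 40.3 FPKM in WT and 0.796, 11.4 and 23.2 FPKM in Kdm6b-cKO, which overlapped (log2 change -2.16, SE 0.64, unadjusted p = 0.00423, adjusted p = 0.191 by limma). *Lrrtm3* was -1.60 in the libraries with more than 500000 effective reads.

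By limma, at P1, 0 of the 42 members passed the adjusted threshold, as did 0% of the 16250 genes tested. At an unadjusted p under 0.05, 6 members were lower in Kdm6b-cKO (7.77% of all genes were) and 2 were higher (6.7% were), and no member had groups that did not overlap (0.683% lower and 0.603% higher over all genes). The median log2 change of the members was -0.26 and that of all genes tested was -0.25, with 21 of the 42 members below the latter. A shift of all genes of this size depends on the scaling: quantile normalization brought the median of all genes to -0.02 and left that of the members at -0.31. With libraries weighted by depth, 16 members had an unadjusted p under 0.05 lower and 1 higher, the median of the members was -0.55 against -0.21 for all genes, and still 0 members passed the adjusted threshold, which 1.46% of all genes then passed lower and 1.53% higher. Summed markers of other cells overlapped between the genotypes at P1, with 753.1 to 1502.6 FPKM in WT and 940.04 to 2825.7 FPKM in Kdm6b-cKO for GABAergic neurons and 29.0 to 51.2 FPKM and 17.9 to 46.0 FPKM for oligodendrocytes. Gene by gene, the median log2 change was -1.41 over 9 oligodendrocyte markers (7 negative) and -0.53 over 12 astrocyte markers (10 negative). It was -0.47 over 13 glutamatergic markers (10 negative) and -0.38 over 14 GABAergic markers (9 negative), and 0 of these passed the adjusted threshold. *Sox10* and *Gfap* had groups that did not overlap, lower in Kdm6b-cKO. The part of these differences in the values of the members was not tested.

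The 6 members with an unadjusted p under 0.05 and a lower level at P1 were *Nlgn3*, *Lrrtm3*, *Dlg4*, *Dlg2*, *Dlgap2* and *Lrfn5*. *Nlgn3*, a neurexin receptor of excitatory and inhibitory synapses, had 3.95, 8.72 and 11.5 FPKM in WT and 0, 3.26 and 5.43 FPKM in Kdm6b-cKO, with 2 libraries at 0 (log2 change -2.81, SE 0.99, adjusted p = 0.225 by limma). Those 2 libraries were the shallowest of the age, and over the 10 others, all above 500000 effective reads, the estimate was -1.04 (adjusted p = 0.123 by limma). *Dlg4*, the gene of PSD-95, had 4.97, 7.32 and 8.57 FPKM in WT and 0, 3.17 and 7.57 FPKM in Kdm6b-cKO (log2 change -1.82, SE 0.81, adjusted p = 0.324 by limma). Its estimate was -0.95 without Kdm6b-cKO number 0, the library at 0, and -1.22 over the 10 libraries above 500000 effective reads, where the groups did not overlap (adjusted p = 0.104 by limma). In those 10 libraries the groups did not overlap in 394 of 14602 genes with Kdm6b-cKO lower and in 313 with Kdm6b-cKO higher. *Lrfn2* was the other member among them, also lower in Kdm6b-cKO. The highest Kdm6b-cKO library for *Dlg4*, number 5, was the one with olfactory receptor signal. It held 192000 effective reads, where 3 reads on a transcript of 3000 bases are worth 5.21 FPKM. The difference in *Dlg4* was 0.08 among the libraries with that signal (4 WT, 1 Kdm6b-cKO) and -2.15 among those without it (2 WT, 5 Kdm6b-cKO, exact permutation p = 0.286). *Dlg2*, the gene of PSD-93 and the longest member with 1945041 bases, had 10.9, 15.7 and 22.5 FPKM in WT and 3.54, 7.53 and 14.1 FPKM in Kdm6b-cKO (log2 change -1.22, SE 0.35, adjusted p = 0.19 by limma). In the libraries without olfactory receptor signal its difference was -0.83 (exact permutation p = 0.19). *Dlgap2* (log2 change -0.89) had 1.89 to 10.46 FPKM in Kdm6b-cKO and 7.90 to 15.5 FPKM in WT, and *Lrfn5* (log2 change -0.60) had 10.4 to 34.3 FPKM in Kdm6b-cKO and 30.7 to 47.1 FPKM in WT. Leaving out 1 library brought *Dlgap2* to -0.57 (without Kdm6b-cKO number 2) and *Lrfn5* to -0.36 (without Kdm6b-cKO number 0).

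The 2 members with an unadjusted p under 0.05 and a higher level at P1 were *Iqsec1* and *Agap2*, which both encode regulators of Arf GTPases. *Iqsec1* had 7.37, 10.2 and 13.5 FPKM in WT and 11.2, 16.1 and 25.3 FPKM in Kdm6b-cKO (log2 change 0.76, SE 0.27, adjusted p = 0.224 by limma), and its difference was 0.37 in the libraries without olfactory receptor signal. *Agap2* had 3.84, 9.502 and 15.3 FPKM in WT and 8.44, 20.5 and 71.2 FPKM in Kdm6b-cKO (log2 change 1.49, SE 0.54, adjusted p = 0.236 by limma). Its difference was 0.74 in the libraries without olfactory receptor signal (exact permutation p = 0.857) and 0.49 with libraries weighted by depth. The 2 libraries at 71.2 FPKM were Kdm6b-cKO numbers 0 and 1, in which the 45S precursor reached 3423 and 3239 FPKM, above the 28.7 to 898.5 FPKM of the other libraries of the age.

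**Figure D2:**
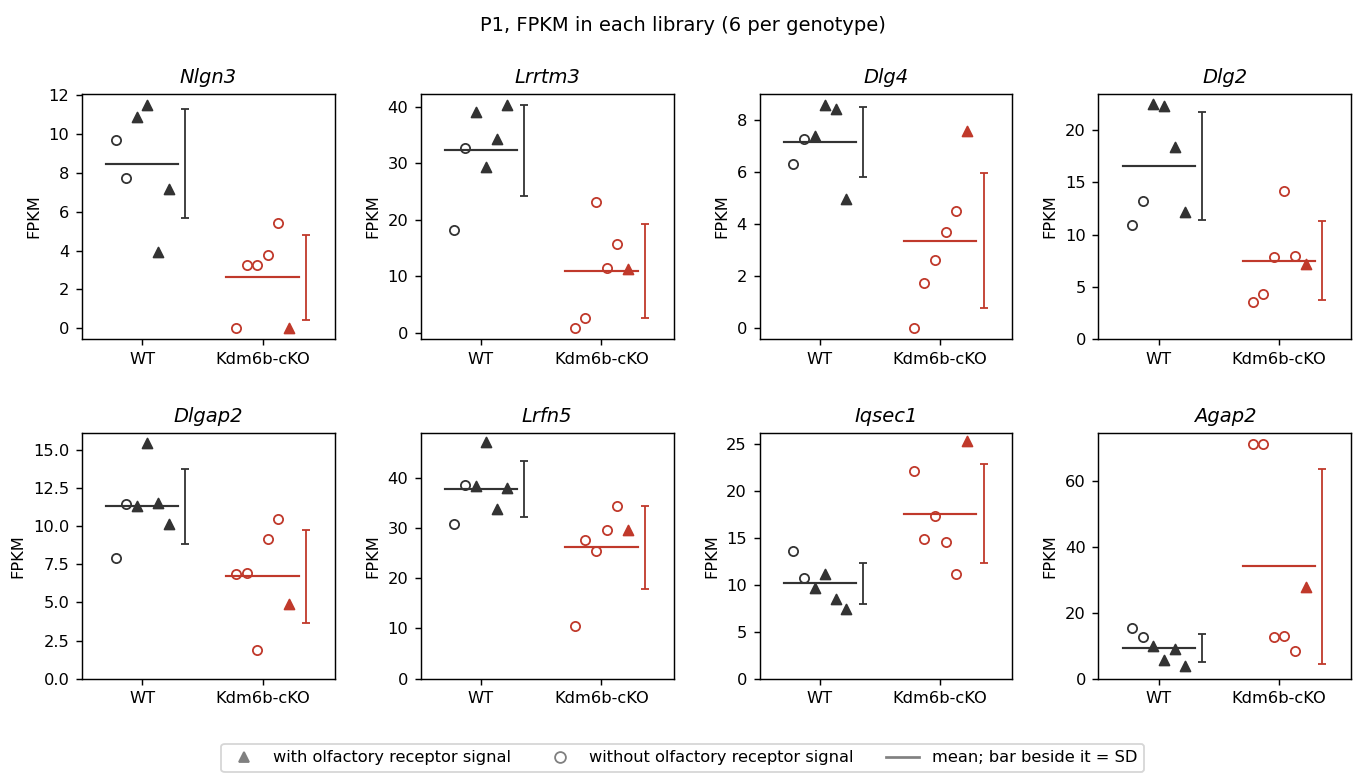
FPKM at P1 in each of the 6 WT and 6 Kdm6b-cKO libraries for the 8 members with an unadjusted p under 0.05, with the mean as a line and the SD as a bar, and filled triangles for the libraries with olfactory receptor signal. The groups overlapped in every panel, 4 of the 5 triangles are WT libraries, and 2 Kdm6b-cKO libraries stand at 71.2 FPKM for *Agap2*.

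By role, the remaining members at P1 had no unadjusted p under 0.05. The 4 CaMKII genes all had negative estimates, from -1.36 for *Camk2d*, which had 1 Kdm6b-cKO library at 0 and up to 9.52 FPKM in the others, and which was at -0.36 without that library, to -0.20 for *Camk2g*. Among neurexins and neuroligins, *Nlgn2*, the neuroligin of inhibitory synapses, had the highest estimate (0.27, SE 0.44, and -0.09 without Kdm6b-cKO number 1), with 16.4 to 26.5 FPKM in WT and 12.1 to 85.7 FPKM in Kdm6b-cKO. Of the SAPAP linkers, *Dlgap4* had 104.2 to 139.9 FPKM in WT and 78.8 to 399.2 FPKM in Kdm6b-cKO (log2 change 0.45, SE 0.39, and 0.18 without Kdm6b-cKO number 0). The Shank and Homer scaffolds ran from -0.60 for *Shank2* to 0.39 for *Homer3*, and the receptor-binding and inhibitory scaffolds from -0.54 for *Gphn*, the gene of gephyrin, to 0.12 for *Grip1*. The lowest estimate among the spine signalling genes was that of *Iqsec2* (-0.65, SE 0.56). Gene length did not separate the members: at P1 the median log2 change was -0.34 for the 16 that span over 200000 bases and -0.26 for the other 26.

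At P30 the members as a group sat at the median of the transcriptome, with a median log2 change of -0.02 against -0.05 for all genes tested, and 19 of 42 below the latter. This position turned with the setting: the members were at 0.20 against -0.06 for all genes with the 45S split as a term of the fit (10 of 42 below), at 0.25 against -0.07 among the libraries above 1000 FPKM of 45S (10 below), and at -0.19 against -0.01 with array weights (28 below). At an unadjusted p under 0.05, 2 were lower in Kdm6b-cKO (*Lrfn1* and *Baiap2*, where 7.37% of all genes were) and 5 were higher (*Agap2*, *Shank1*, *Grip1*, *Lrfn5* and *Homer2*, where 5.34% were). *Baiap2* had 194.8, 268.4 and 342.2 FPKM in WT and 160.2, 192.6 and 234.6 FPKM in Kdm6b-cKO (log2 change -0.44, SE 0.20, adjusted p = 0.371 by limma). Its Kdm6b-cKO libraries had 160.2 to 173.9 FPKM below 1000 FPKM of 45S and 211.25 to 234.6 FPKM above. Among the libraries above, its difference between the genotypes was -0.32 (5 WT, 3 Kdm6b-cKO, exact permutation p = 0.161). *Grip1*, whose PDZ protein binds AMPA receptors, had 7.19, 9.20 and 16.9 FPKM in WT and 13.4, 17.6 and 26.6 FPKM in Kdm6b-cKO. The overlap came from WT number 1 alone, which had 16.9 FPKM where the next WT library had 9.70 FPKM (log2 change 0.88, SE 0.22, adjusted p = 0.131 by limma, exact permutation p = 0.00649). The adjusted p of *Grip1* by limma was 0.0517 or more in all 12 fits that leave out 1 library. Its Kdm6b-cKO libraries were also split by 45S, with 13.4 to 17.1 FPKM below 1000 FPKM of 45S and 18.1 to 26.6 FPKM above. *Homer2*, whose protein ties Shank to metabotropic glutamate receptors, had 7.58, 8.92 and 11.3 FPKM in WT and 9.04, 12.7 and 13.5 FPKM in Kdm6b-cKO (log2 change 0.35, SE 0.16, adjusted p = 0.393 by limma).

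*Agap2* and *Shank1* had the highest estimates at P30. *Agap2* had 9.54, 28.1 and 50.9 FPKM in WT and 28.3, 68.9 and 182.5 FPKM in Kdm6b-cKO (log2 change 1.28, SE 0.52, adjusted p = 0.328 by limma). *Shank1*, a scaffold of the deep postsynaptic density, had 8.71, 21.4 and 31.0 FPKM in WT and 20.0, 34.1 and 107.8 FPKM in Kdm6b-cKO (log2 change 1.07, SE 0.44, adjusted p = 0.336 by limma). In each gene the 3 Kdm6b-cKO libraries with 45S above 1000 FPKM were the highest of all and the 3 below it were within the range of WT. The 1 WT library below 1000 FPKM, number 0, was also the lowest WT library for both.

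**Figure D3:**
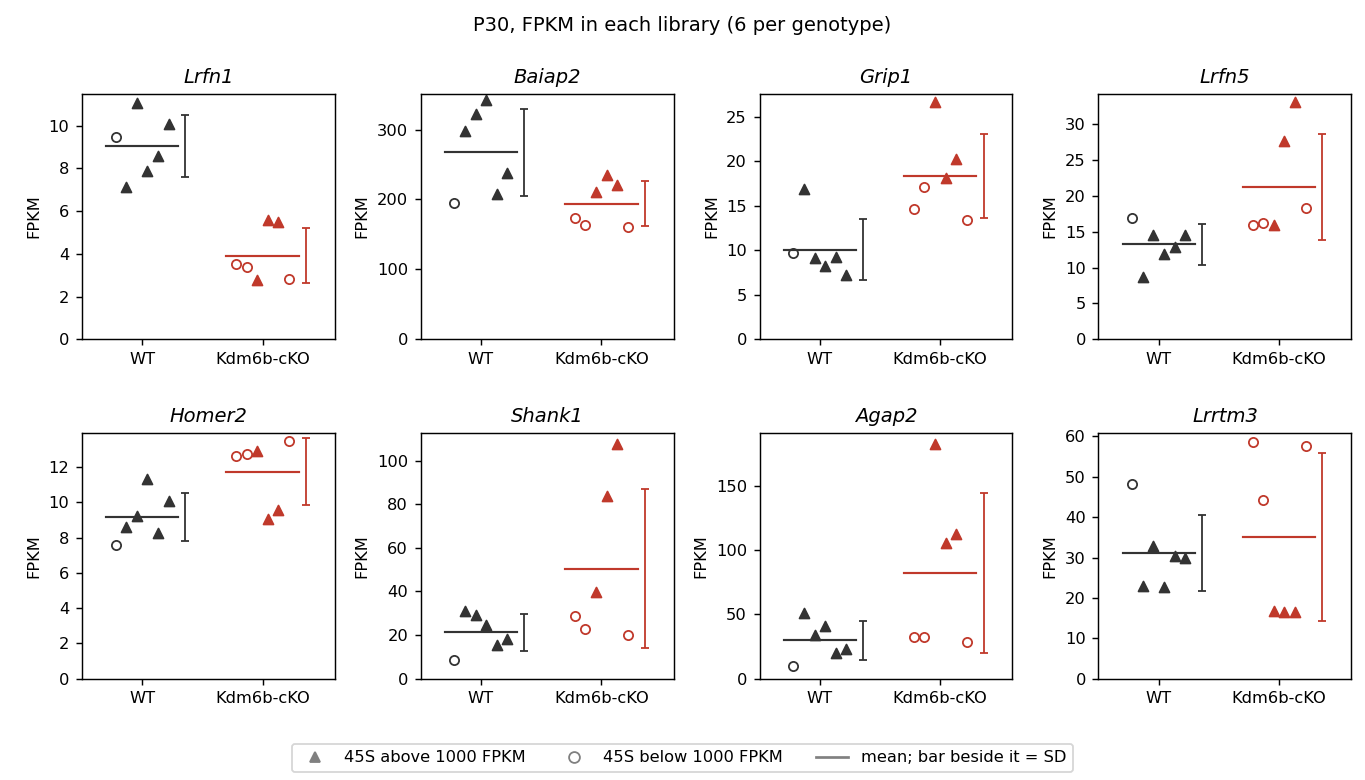
FPKM at P30 in each of the 6 WT and 6 Kdm6b-cKO libraries for the 7 members with an unadjusted p under 0.05 and for *Lrrtm3*, with the mean as a line, the SD as a bar, and filled triangles for libraries with 45S above 1000 FPKM. *Lrfn1* shows no overlap (WT from 7.13 FPKM, Kdm6b-cKO up to 5.57 FPKM). The Kdm6b-cKO libraries are split by 45S for *Shank1*, *Agap2*, *Grip1* and *Baiap2*, higher above 1000 FPKM, and for *Lrrtm3*, lower above.

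Within Kdm6b-cKO at P30, 26 of the members separated the libraries by this split. Of the 42 members, 21 were higher in all 3 Kdm6b-cKO libraries with 45S above 1000 FPKM than in all 3 below (22.8% of all genes tested were), 5 were lower in all 3 (23.4% of all genes were) and 16 overlapped. The median difference was 0.54 on the log2 scale for the members and -0.10 for all genes tested. The libraries were divided by their 45S level after the data were seen, so these are descriptions without a test. *Nrxn2*, a presynaptic neurexin, had the largest difference, with 10.7 to 12.2 FPKM in the 3 libraries below and 53.3 to 102.1 FPKM in the 3 above. The highest differences also included *Dlgap3* (15.8 to 20.2 against 55.1 to 101.1 FPKM), *Agap2* (28.3 to 32.2 against 105.7 to 182.5 FPKM), *Camk2a* (72.4 to 93.2 against 165.0 to 337.2 FPKM) and *Dlgap4* (74.2 to 97.5 against 231.9 to 301.8 FPKM). Going the other way, *Lrrtm3* had 44.4 to 58.7 FPKM below and 16.5 to 16.8 FPKM above, *Dlg4* had 16.4 to 17.6 FPKM below and 4.87 to 9.06 FPKM above, and *Dlgap1*, *Dlg1* and *Gphn* were likewise lower in all 3 libraries above. The scaffolds that bind one another did not move together across these libraries: the SAPAP genes *Dlgap2*, *Dlgap3* and *Dlgap4* and all 3 Shank genes were higher where *Dlg4* and *Dlgap1* were lower. *Lrfn1* overlapped between the 2 sides (2.82 to 3.51 FPKM below, 2.79 to 5.57 FPKM above), and all 6 values were under the lowest WT library.

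Other features moved with the same libraries. The 3 Kdm6b-cKO libraries above held 1940000 to 2660000 effective reads and the 3 below held 5110000 to 8050000. Their summed glutamatergic markers did not overlap, with 385.1 to 489.7 FPKM above and 213.8 to 250.9 FPKM below. Their summed GABAergic markers were 233.5 to 364.4 FPKM above and 325.4 to 425.7 FPKM below, and their summed astrocyte markers 176.0 to 190.0 FPKM and 176.6 to 290.4 FPKM. At P1, 2 Kdm6b-cKO libraries had 45S above 1000 FPKM. Of the 21 members higher in the libraries above at P30, 10 were higher in both of these than in the other 10 libraries of the age, and 11 were not. Of the 5 lower at P30, *Dlg4* and *Lrrtm3* were lower in both, and *Dlg1*, *Dlgap1* and *Gphn* were not. Over the 42 members, 12 were higher in both (9.6% of all genes tested at P1) and 3 were lower in both (10.3%). How many of all genes with the same split at P30 also had it at P1 was not counted. *Nrxn2* had 55.0 and 65.2 FPKM against 4.37 to 14.9 FPKM, *Dlgap4* had 397.4 and 399.2 FPKM against 78.8 to 139.9 FPKM, *Shank1* had 28.2 and 31.1 FPKM against 3.34 to 21.4 FPKM, and *Lrrtm3* had 0.796 and 2.62 FPKM against 11.4 to 40.3 FPKM. This comparison was made after the P30 values were seen. The part of depth, of the 45S level and of the glutamatergic markers in these differences was not tested.

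**Figure D4:**
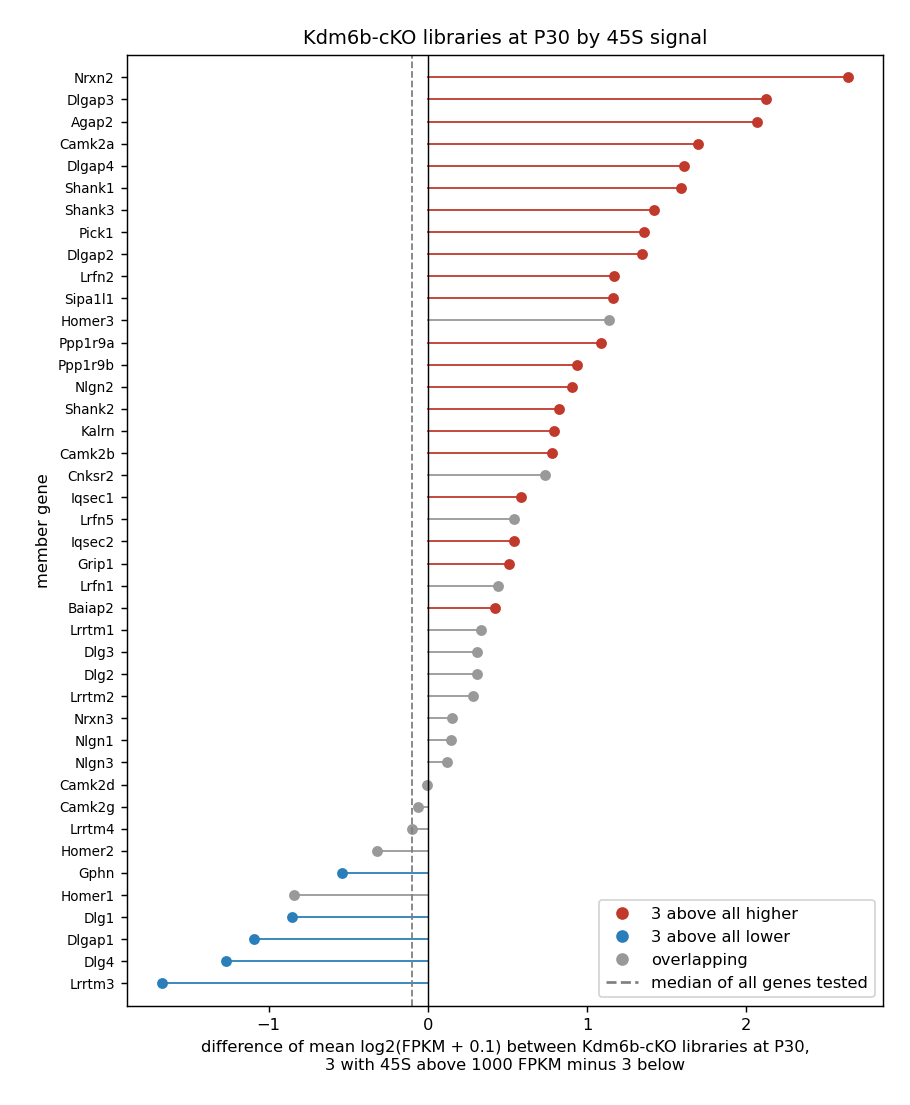
Difference of the mean log2(FPKM + 0.1) between the 3 Kdm6b-cKO libraries at P30 with 45S above 1000 FPKM and the 3 below, for each of the 42 members, with the median of all genes tested as a dashed line. Red points mark the 21 members higher in all 3 libraries above, blue points the 5 lower in all 3, and grey points the 16 that overlapped.

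With the 45S split as a term of the fit, 7 members passed the adjusted threshold at P30: *Lrfn1* lower (5.47% of all genes passed lower) and *Agap2*, *Shank1*, *Grip1*, *Nrxn2*, *Dlgap4* and *Shank2* higher (5.18% of all genes passed higher). *Agap2* then had a log2 change of 1.93 (SE 0.24, adjusted p = 0.00357 by limma), *Shank1* one of 1.57 (SE 0.26, adjusted p = 0.00634 by limma), and *Nrxn2* one of 1.22 (SE 0.27, adjusted p = 0.0166 by limma). Among the libraries above 1000 FPKM alone, the difference was 2.03 for *Agap2*, 1.63 for *Shank1*, 1.13 for *Grip1* and 0.99 for *Lrfn5*, each with groups that did not overlap (5 WT, 3 Kdm6b-cKO, exact permutation p = 0.0179, the smallest possible). In the same fit *Nrxn2* (1.49) and *Pick1* (0.78) also passed higher, and *Lrfn1*, *Dlgap1* (-0.96, adjusted p = 0.0249 by limma) and *Lrrtm3* (-0.72, adjusted p = 0.0303 by limma) passed lower, so that 9 members passed. *Dlg1* and *Dlgap4* did not pass, and their groups did not overlap, with Kdm6b-cKO lower for *Dlg1* and higher for *Dlgap4*. In the libraries below, where 1 WT library was set against 3, the differences were 1.68 for *Agap2*, 1.42 for *Shank1*, 0.62 for *Grip1* and -0.02 for *Lrfn5*. Over all genes, 5.27% passed lower and 5.38% passed higher among the libraries above. Groups did not overlap there in 1263 of 13200 genes with Kdm6b-cKO lower and in 1395 with Kdm6b-cKO higher. With libraries weighted by their fit to the model (array weights), 10 members passed: *Lrfn1*, *Camk2a*, *Camk2b*, *Dlgap2*, *Dlgap3*, *Shank3*, *Iqsec2* and *Baiap2* lower (8.52% of all genes) and *Grip1* and *Homer2* higher (5.7%). With weights by depth, *Lrfn1* was the single call (0.579% of all genes lower, 0.248% higher). *Lrfn1* was lower and *Grip1* higher in all of these fits. *Agap2* and *Shank1* were called only with the 45S split as a term or among the libraries above it. The split did not make the 45S level equal between the genotypes. Above 1000 FPKM it was 1629 to 4027 FPKM in WT and 3034, 15420 and 25878 FPKM in Kdm6b-cKO. Those libraries held 5120000 to 8310000 effective reads in WT and 1940000 to 2660000 in Kdm6b-cKO. The part of either difference in these calls was not tested.

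The other roles at P30 held no member past the adjusted threshold. *Dlg1*, the most abundant guanylate kinase scaffold in WT, had 22.9, 31.8 and 38.5 FPKM there and 17.2, 27.1 and 40.6 FPKM in Kdm6b-cKO (log2 change -0.21, SE 0.22), and *Dlg4* had 8.82 to 18.5 FPKM in WT and 4.87 to 17.6 FPKM in Kdm6b-cKO (log2 change -0.32, SE 0.31). *Dlgap1* had 101.2, 146.7 and 176.6 FPKM in WT and 61.3, 123.9 and 159.1 FPKM in Kdm6b-cKO (log2 change -0.41, SE 0.27, over all 12 libraries). *Camk2a* had 97.6, 222.4 and 324.1 FPKM in WT and 72.4, 129.1 and 337.2 FPKM in Kdm6b-cKO (log2 change -0.49, SE 0.43), and *Camk2d* was the one CaMKII gene with a positive estimate (0.19, SE 0.17). *Nrxn3*, the most abundant gene of its role, had 55.8 to 67.8 FPKM in WT and 54.8 to 70.2 FPKM in Kdm6b-cKO (log2 change -0.08, SE 0.12). *Pick1*, a regulator of AMPA receptor endocytosis, had 60.1 to 99.2 FPKM in WT and 48.0 to 164.7 FPKM in Kdm6b-cKO, and *Gphn* had 58.1 to 86.2 FPKM in WT and 41.7 to 82.1 FPKM in Kdm6b-cKO. *Homer1*, the most abundant of the Shank and Homer scaffolds, had 17.9, 29.7 and 39.4 FPKM in WT and 13.7, 24.1 and 45.8 FPKM in Kdm6b-cKO (log2 change -0.14, SE 0.30), and *Shank3* (-0.28, SE 0.38) had the lowest estimate of that role. The estimates of the neurexins and neuroligins ran from -0.17 for *Nlgn3* to 0.45 for *Nrxn2*, which had 7.87 to 44.5 FPKM in WT and 10.7 to 102.1 FPKM in Kdm6b-cKO.

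Further genes of the same pathways, from lists set beside the members, gave no call by limma. Their counts stand against the shares of all genes at an unadjusted p under 0.05, 7.77% lower and 6.7% higher at P1 and 7.37% lower and 5.34% higher at P30, and their medians against -0.25 and -0.05 over all genes. Of 33 further postsynaptic scaffold and signalling genes tested, 0 passed the adjusted threshold at either age, and at an unadjusted p under 0.05, 7 were lower and 0 higher at P1 and 2 were lower and 1 higher at P30. Their median log2 change was -0.38 at P1 and 0.05 at P30. At P1, 4 of these 33 had groups that did not overlap, *Anks1b*, *Cyfip2*, *Grip2* and *Tanc2*. All 4 were lower in Kdm6b-cKO (0.683% of all genes were), and 0 were higher. At P30, *Shisa9* had groups that did not overlap, higher in Kdm6b-cKO (0.888% of all genes were), and 0 were lower. Of 33 further synaptic adhesion genes tested, 0 passed at either age, with 3 lower and 0 higher at P1 and 2 lower and 4 higher at P30 before adjustment, and medians of -0.28 and 0.01. Among them only *Slitrk5* had groups that did not overlap, lower in Kdm6b-cKO at P1. Of 8 NMDA and group I metabotropic glutamate receptor genes tested, 0 passed, with 4 lower and 0 higher at P1 and 0 lower and 4 higher at P30 before adjustment, and medians of -0.58 and 0.00.

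Markers of other cells differed between the same groups at P30. All 12 oligodendrocyte markers tested had negative estimates (median -0.93) and 3 of them, *Mag*, *Mbp* and *Sox10*, passed the adjusted threshold, with summed levels of 274.7 to 532.7 FPKM in WT and 145.4 to 209.2 FPKM in Kdm6b-cKO. All 11 GABAergic markers tested had positive estimates (median 1.54) and 0 passed, with summed levels of 60.1 to 587.5 FPKM in WT and 233.5 to 425.7 FPKM in Kdm6b-cKO. Of the 13 glutamatergic markers, *Nrn1* and *Slc17a6* passed, both lower. The 12 astrocyte markers had a median of -0.09 and summed to 162.5 to 290.7 FPKM in WT and 176.0 to 290.4 FPKM in Kdm6b-cKO. Microglial markers summed to 13.5 to 52.3 FPKM in WT and 20.4 to 64.6 FPKM in Kdm6b-cKO, and endothelial and mural markers to 4.42 to 22.3 FPKM and 10.1 to 27.7 FPKM. No marker of these lists was at 0 in every library of a group at P30. The part of these differences in the values of *Lrfn1* and the other members was not tested.

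The genotype effect was then compared between the ages over all 24 libraries. No member passed the adjusted threshold, which 1 of 12644 genes did (0.00791%). At an unadjusted p under 0.05, 7 members had a higher genotype effect at P30 than at P1 (6.88% of all genes did) and 0 had a lower one (6.31% did). They were *Nlgn3* (2.64, SE 1.08), *Lrrtm3* (2.14, SE 0.79), *Shank1* (1.53, SE 0.71), *Dlg2* (1.33, SE 0.41), *Lrfn5* (1.24, SE 0.36), *Shank2* (1.01, SE 0.41) and *Grip1* (0.76, SE 0.36), with adjusted p-values by limma from 0.161 to 0.37. *Lrfn5* had a log2 change of -0.60 at P1 and 0.64 at P30. For *Nlgn3* the P1 change came with 2 Kdm6b-cKO libraries at 0 FPKM, and its difference between ages ran from 1.36 to 2.66 over the alternatives.

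The ages were compared by rank, since their tables were normalized separately. Each gene was ranked within its library among 16895 genes, as a percentile with 100 for the highest and tied genes at their mean rank. Genes at 0 FPKM therefore shared a rank above 0 that differed by library. In Kdm6b-cKO at P1 it was 15.4 for the lowest value of *Dlg4* and 4.40 for that of *Nlgn3*. In WT, 22 of the 42 members had 6 ranks at P30 all above the 6 at P1 (21.6% of all ranked genes did), 1 had them all below (20.4% did) and 19 overlapped. In Kdm6b-cKO the counts were 20 higher (12.1% of all genes), 0 lower (10.9%) and 22 overlapping. In both genotypes 18 members were higher (10.4% of all genes) and 0 lower (9.33%). The median change of the mean rank was 12.6 points in WT and 14.8 points in Kdm6b-cKO, against -0.77 and -1.45 points over all ranked genes. No test was made of these ranks.

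The 18 members higher at P30 in both genotypes were *Dlg1* and *Dlg4* of the guanylate kinase scaffolds, *Dlgap1*, *Dlgap2* and *Dlgap3* of the SAPAP linkers, *Shank2* and *Homer2*, all 4 CaMKII genes, *Pick1* and *Gphn*, and *Iqsec2*, *Sipa1l1*, *Baiap2*, *Kalrn* and *Cnksr2* of the spine signalling genes. None of the 5 neurexin and neuroligin genes or the 7 leucine-rich repeat adhesion genes was among them, though *Nlgn2* rose past all P1 ranks in WT and *Nrxn3* did so in Kdm6b-cKO, and the roles were not compared by a test. The largest rise in WT was that of *Camk2a*, from 23.8, 51.3 and 57.3 (lowest, median and highest rank at P1) to 97.7, 99.3 and 99.5 at P30, and in Kdm6b-cKO it went from 23.9, 47.7 and 54.1 to 96.7, 98.1 and 99.5. *Iqsec2*, an Arf exchange factor of the postsynaptic density, went in WT from a median rank of 28.3 to 72.5, *Dlgap3* from 49.5 to 92.8, *Kalrn*, the gene of the spine exchange factor kalirin, from 56.1 to 96.3, and *Shank3* from 28.8 to 66.6. *Shank3* overlapped between the ages in Kdm6b-cKO, where its median went from 32.9 to 54.1. *Nlgn2*, *Iqsec1* and *Ppp1r9a* overlapped between the ages in Kdm6b-cKO only, and *Dlg3* and *Nrxn3* in WT only. Whether these differ between the genotypes was not tested.

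Falls of rank were smaller. The 5 largest falls of the mean rank in WT were those of *Lrfn5* (-16.7 points), *Homer3* (-15.4), *Lrrtm2* (-9.17), *Dlg2* (-8.89) and *Nlgn3* (-7.52). *Lrfn5* alone had ranks that did not overlap, from 82.4, 85.4 and 90.7 at P1 to 60.9, 70.3 and 75.6 at P30 in WT. In Kdm6b-cKO its ranks overlapped, with 61.3, 79.7 and 84.9 at P1 and 73.9, 76.1 and 86.4 at P30. *Dlg2* had a mean rank 12.5 points higher at P30 in Kdm6b-cKO, and *Nlgn3* one 13.4 points higher, where in WT both were lower at P30. *Dlg4*, known as the scaffold of mature excitatory synapses, and *Dlg3*, which encodes the scaffold SAP102 of young synapses, both had higher mean ranks at P30 in WT, by 19.2 and 7.54 points.

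**Figure D5:**
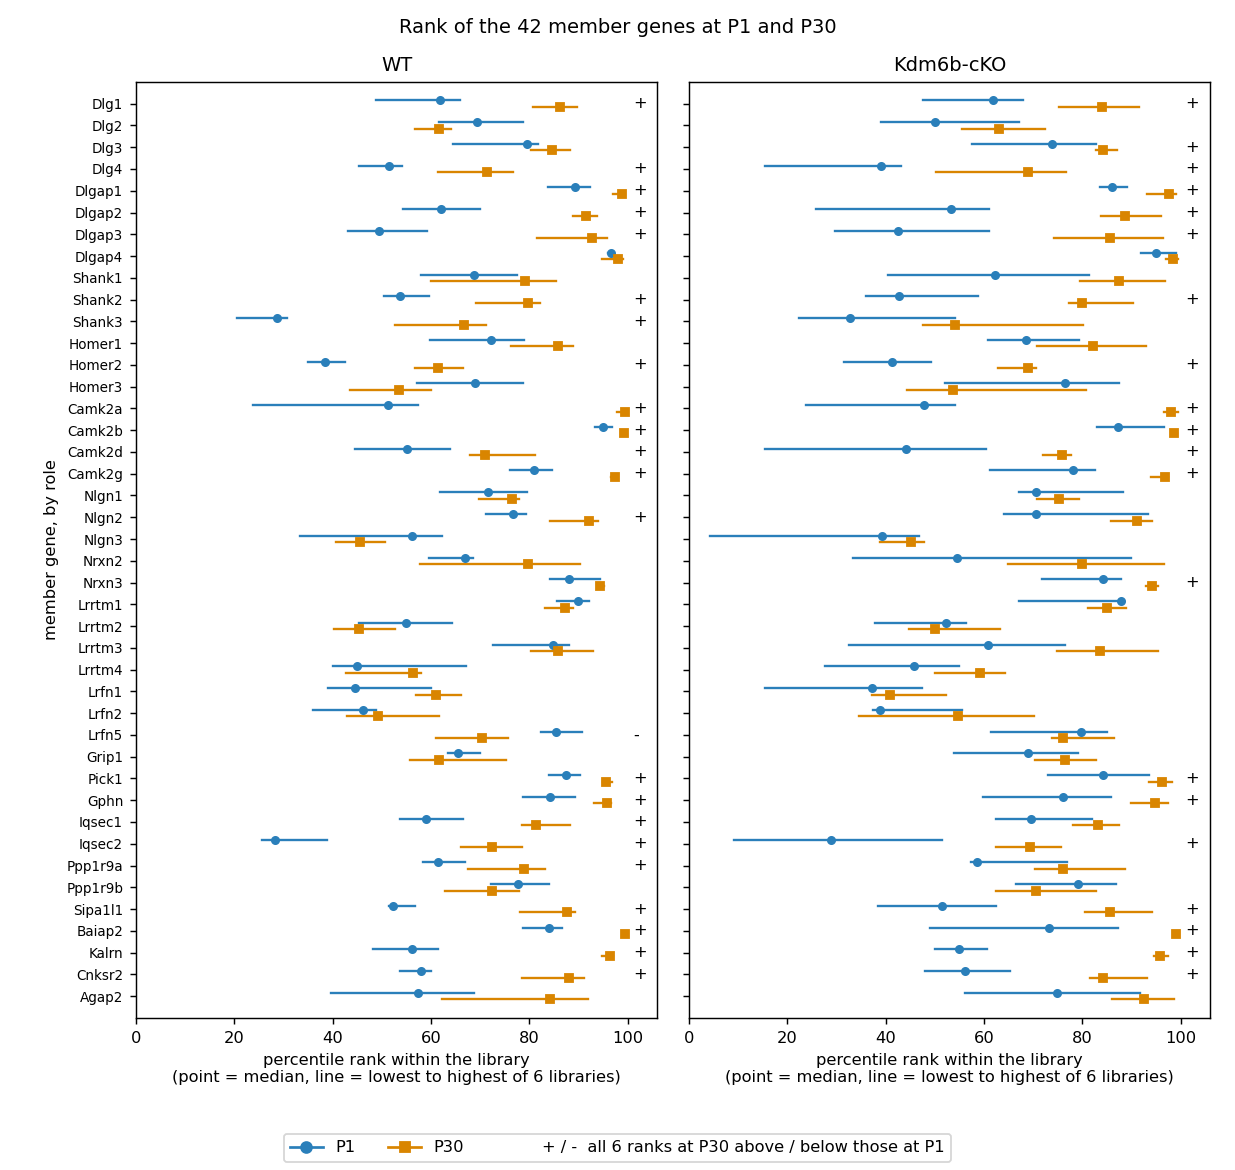
Percentile rank within the library at P1 (blue circles) and P30 (orange squares) for the 42 members in WT (left) and Kdm6b-cKO (right), with the median as a point and the lowest to highest of 6 libraries as a line. A plus sign marks the 22 members in WT and the 20 in Kdm6b-cKO whose ranks at P30 all lie above those at P1, and the minus sign marks *Lrfn5* in WT.

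The counts of rank were checked on the libraries without the signals named above. With only the P1 libraries without olfactory receptor signal (2 WT, 5 Kdm6b-cKO), 27 members were higher at P30 in WT (28.7% of all genes) and 21 in Kdm6b-cKO (13.6%). With only the P30 libraries with 45S below 1000 FPKM (1 WT, 3 Kdm6b-cKO), 25 were higher in WT (30.8% of all genes) and 22 in Kdm6b-cKO (17.6%). In WT, 3 members were lower at P30 with the first restriction (28.7% of all genes), 7 with the second (30.9%) and 10 with both (48.4%, where 2 libraries were set against 1), and in Kdm6b-cKO 0 were under each of them (13%, 15.1% and 18.6%).

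In 5 members, *Dlgap4*, *Shank3*, *Homer3*, *Nrxn2* and *Lrrtm4*, an exon overlaps an exon of another gene on the opposite strand in GENCODE vM1. Whether the reads were counted by strand is not given in the sources used here, so reads of such gene pairs cannot be told apart in these values.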

How the data were processed

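Nuclei of the Emx1 lineage were sorted from mouse cortex by SUN1-GFP, and their total RNA was sequenced. The authors deposited 1 table of FPKM values per age, made with HISAT2 on mm9 and normalized with Cuffdiff within that age. Tool versions and the annotation are not given in the sources used here. Tables of the authors' own Cuffdiff comparison (group FPKM, fold changes, p and q values) were not used. The tables number the libraries of each group from 0 to 5, and these numbers are not tied to replicates in the labels.

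For each age, the genotypes were tested by limma's moderated linear model with a trend on mean level (limma 3.58.1, R 4.3.3). The input was log2(FPKM + 0.1) of genes that averaged 1 FPKM or more over the 12 libraries, and p-values are two-sided and were adjusted by the Benjamini-Hochberg method over the whole table, with a threshold of 0.05. Fold changes on this scale tend to understate those of low genes that are above 0 FPKM in every library. Where a library is at 0 FPKM, the change depends on the value added and can exceed that of the group means. *Nlgn3* at P1 had a log2 change of -2.81, and of -3.92 with 0.01 added instead. The former is a level 7.01-fold higher in WT, whose libraries averaged 8.49 FPKM, while those of Kdm6b-cKO averaged 2.62 FPKM. The genotype effects at both ages were compared in 1 fit of 24 libraries, each age having its own intercept. Exact permutation p-values (two-sided, mean log2 values) are given for single genes. Ages were compared only by percentile rank within a library. Effective depth was estimated from what 1 read is worth in genes of 1 transcript, assuming fragments of 200 bases. It covers counting error only, and so do the values given for 3 reads.

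The members and lists were chosen with earlier results of these data known. Named are members past the adjusted threshold or with groups that do not overlap, in each role the most abundant member in WT at P30 and those with the lowest and highest log2 change, and the 5 largest rises and falls of rank in WT, besides members with an unadjusted p under 0.05. The fits were tested on simulated data. The alternatives were other pseudocounts (1 and 0.01), filters, scalings, library weights and empirical Bayes settings, the batches, a block by library number, and leaving out each library. The restriction to libraries above 500000 effective reads at P1, the rank counts within batches and the 45S split within Kdm6b-cKO were added after the data were seen. Python 3.11.15 was used for the remaining steps, with scipy 1.17.1, pandas 2.3.3, matplotlib 3.10.9 and numpy 2.4.6. Gene positions are from GENCODE vM1 on mm9, and promoters from RefSeq on GRCm38.p6.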

Additional observations from a re-analysis of the deposited data

Results flagged for a closer look

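In 3 of 30 groups of 6 libraries tested, 1 library lay far from the others of its group, where chance flags about 1 in 20. *Dlg4* at P1 was at 0 FPKM in Kdm6b-cKO number 0, and *Lrfn5* was at 10.4 FPKM in the same library, the lowest of its group for both genes. That library held 343000 effective reads and had 45S at 3423 FPKM. *Grip1* at P30 was at 16.9 FPKM in WT number 1, the highest of its group, in the WT library with the highest 45S level, 4027 FPKM.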

How the results depend on the processing

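The count of members past the adjusted threshold at P30, 1 as reported, was 10 with array weights (8 lower and 2 higher, where 8.52% of all genes passed lower and 5.7% higher), 7 with the 45S split as a term, 9 among the libraries above 1000 FPKM of 45S alone, and 0 to 1 when each library was left out. With a replicate block by library number, the count was 0, and the count over all genes went from 49 (38 lower, 11 higher) to 0. That count was 1889 with array weights, 1416 with the 45S term, 1405 in the libraries above 1000 FPKM, 110 with depth weights and 74 (45 lower, 29 higher) with quantile normalization. When each library was left out it ran from 2 (without WT number 2, 3 or 5) to 60 (without Kdm6b-cKO number 2). At P1 it was 0, and 486 with depth weights, 51 without Kdm6b-cKO number 4, 2 without WT number 4 and 1 without the trend. For the difference between ages it was 1, and 521 with array weights, 39 with quantile normalization, 10 with a pseudocount of 1 and 2 without a filter. The block was run although nothing in the labels pairs libraries of the same number. Correlations of the deviations of same-numbered libraries ran from -0.18 to 0.23 at P1 and from -0.30 to 0.33 at P30, which cannot settle whether any were paired. *Lrfn1* at P30 stayed negative under every alternative run, past the threshold in 12 of 13 besides leaving out a library, with adjusted p-values by limma from 0.000305 to 0.191, the last with the block. For the difference between ages the count of 0 became 1 with array weights (*Lrrtm3*). In WT, 1 to 2 members lay lower by rank at P30 when each library was left out, 3 with only the P1 libraries without olfactory receptor signal (28.7% of all genes), 7 with only the P30 library below 1000 FPKM of 45S (30.9%) and 10 with both restrictions (48.4%), which leave 2 libraries against 1. The cause was not tested. The count of members at P1 stayed at 0 under every alternative run. Of the values recomputed for single named members, 364 kept their side of the threshold, 10 moved past it and 9, all of *Lrfn1*, fell short of it. At P1, 1 read on 3000 bases was worth up to 1.74 FPKM, and at P30 up to 0.172 FPKM, so low members are measured less well at P1.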
